A study of Homo sapiens with 4 samples.

Results

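The 35 genes described here encode enzymes of cholesterol and fatty acid synthesis and the proteins that control them. They were taken by gene symbol from a table of 57815 genes, in which each of the 35 has 1 row, and they do not cover every enzyme of these pathways. RNA-Seq had been performed on MDA-MB-231, a human triple-negative breast cancer cell line, and on LM2-4175, a line isolated from MDA-MB-231 that metastasizes to the lung. Each line was untreated, was grown in medium with fetal bovine serum and was sequenced in 2 libraries of total RNA, so that there were 4 libraries in all. Whether LM2-4175 is 1 clone is not stated in the sources used here. The comparison asks which of these genes differ between a breast cancer line and its lung-metastatic derivative. Because the libraries of a line were combined in 1 value, there was no replicate to test against, and no p-value is given for any gene.

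Cholesterol is built in the cytosol and endoplasmic reticulum from acetyl-CoA by way of mevalonate, farnesyl diphosphate, squalene and lanosterol. Fatty acids are built from the same acetyl-CoA by carboxylation and repeated condensation, and are then elongated, desaturated and activated with coenzyme A. Most genes of both pathways are targets of the SREBP transcription factors, which SCAP carries to the Golgi for cleavage when sterols are scarce and which INSIG proteins hold back in the endoplasmic reticulum when sterols are plentiful. Breast cancer cells are known to use both their own synthesis and lipids taken up from serum.

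The values are FPKM, fragments counted on a gene relative to its length and to the total of its library, each deposited with a lower and an upper bound. The mesenchymal gene VIM was high in MDA-MB-231 (1355 FPKM) and in LM2-4175 (1768 FPKM), and the hormone receptor genes ESR1 and PGR were at most 0.0331 FPKM in either line. CDH1, the epithelial cadherin, had 0.851 and 0.366 FPKM. The other markers of carcinoma cells differed between the lines by the rule used below, with SPARC higher in LM2-4175 (13.6 against 232 FPKM) and FN1, KRT8, KRT18 and EPCAM lower, and their part in the differences described here was not tested. Of the markers of other cell types, CD3E and LEP were listed at 0 in both lines, PTPRC of white blood cells had 0.0767 and 0.0263 FPKM, and the adipocyte gene PLIN1 had 0.0425 and 0.232 FPKM. The liver gene ALB was listed at 7.48 FPKM in MDA-MB-231 and 8.49 FPKM in LM2-4175. The table holds an FPKM sum of 632944 for MDA-MB-231 and of 598147 for LM2-4175, and the read depth behind the values of single genes is unknown from the table.

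In all, 3 of the 35 genes were called different between the lines. ELOVL7, which encodes a fatty acid elongase, was called higher in LM2-4175, while LSS and SC5D, which encode enzymes of the late cholesterol pathway, were called lower. A gene was called where its FPKM + 1 differed by at least 1.5-fold and the deposited bounds of the lines did not overlap. The 3 genes are 8.57% of the 35, and by the same rule 9.27% of the 13911 genes compared across the table were called, so the share of the set was near the background. Of all genes compared, 4.67% were called higher in LM2-4175 and 4.61% lower. All 35 genes passed the filter of a mean of at least 0.5 FPKM. Of the 35, 24 had a lower FPKM in LM2-4175 and 11 a higher one, so that 68.6% were lower, against 54.5% of all genes compared and 58.3% of the 9273 genes at or above the mean FPKM of the lowest of the 35. The log2 difference is log2(FPKM + 1) of LM2-4175 minus that of MDA-MB-231, and its median was -0.24 for the 35 genes, -0.04 for all genes compared and -0.08 for those 9273 genes. Other rules gave a similar picture. The fold of 1.5 alone was passed by 17.1% of the 35 genes (1 higher and 5 lower), against 22.1% of all genes (10.3% higher and 11.8% lower) and 18.6% of the 9273 genes. Bounds apart alone gave the same 3 genes, against 9.39% of all genes (4.74% higher and 4.64% lower). With a fold of 2 and bounds apart, ELOVL7 alone was called, against 6.13% of all genes (3.23% higher and 2.9% lower). When both lines were scaled to the same sum, 20 of the 35 genes were lower, with a median of -0.17 beside 0.03 for all genes. FDPS, MSMO1, INSIG2 and ACSL3 changed sign under that scaling, and each of them lay within 0.05 of 0 on the log2 scale before it.

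**Figure D1:**
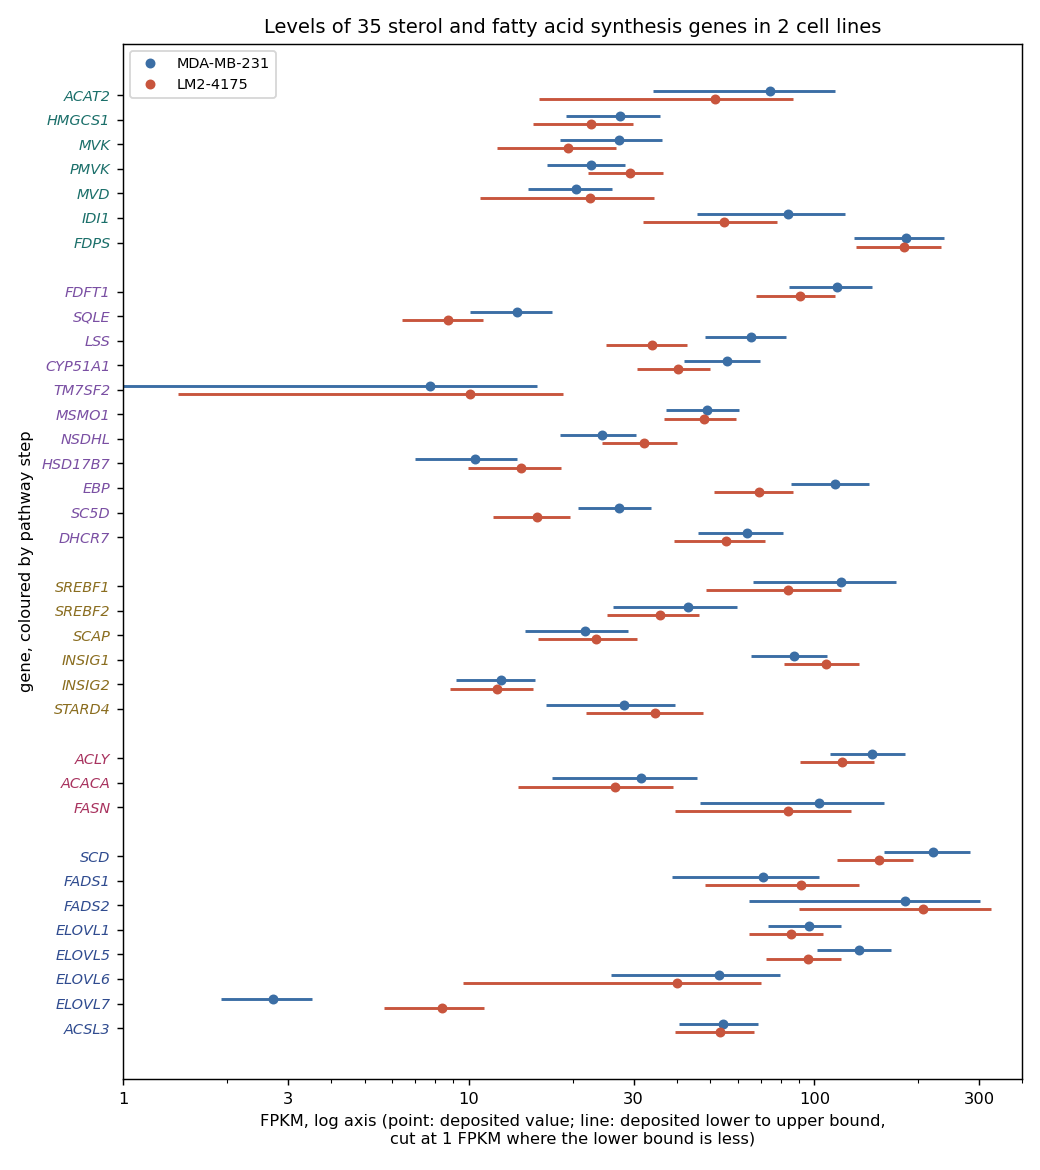
FPKM of the 35 genes on a log axis in MDA-MB-231 (blue) and LM2-4175 (red), ordered by pathway step, with a point for the deposited value and a line for its lower to upper bound. The lines overlap for 32 of the 35 genes, and ELOVL7, LSS and SC5D stand apart.

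As a group, these genes were highly expressed. In MDA-MB-231, 12 of the 35 genes were in the top 10% of all genes compared, and in LM2-4175 11 were. SCD was the highest in MDA-MB-231 at 221 FPKM, followed by FDPS and FADS2, and FADS2 was the highest in LM2-4175 at 207 FPKM, followed by FDPS and SCD. ELOVL7 was the lowest in both lines. For all 34 pairs of neighbours in the order, the bounds overlapped in MDA-MB-231, and the same held for the 34 pairs in LM2-4175, so the order of close genes is not resolved. Across the 35 genes, which share their libraries, the levels of one line followed those of the other on the log2(FPKM + 1) scale, with r = 0.948 (Pearson) and rho = 0.953 (Spearman). The range from the lowest to the highest gene was 81.1-fold in MDA-MB-231 and 24.7-fold in LM2-4175. Together the 35 genes made up 0.379% of the summed FPKM of MDA-MB-231 and 0.345% of that of LM2-4175.

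Sequence features of the promoters were examined because many genes of these pathways are known to be read by SREBP together with the factor NF-Y. Promoter windows of 300 bases, from 250 bases before to 50 after the annotated start, were taken from RefSeq on GRCh38.p14 and matched 31 of the 35 genes with 41 windows. Both strands were searched for CCAAT, the NF-Y box, for CACGTG, the E-box, for GGGCGG, the GC box, and for TCACNCCAC, a sterol regulatory element. The NF-Y box was in the windows of 23 of the 31 genes (74.2%), against 43.5% of the 9452 genes compared that had a window, and 15 of the 31 genes had a window with 2 or more of them. Of single windows, 65.9% held it among the 41, against 34.6% of all 35116 windows. A GC box was found in 29 of the 31 genes (93.5%, against 77.5%) and an E-box in 5 genes (16.1%, against 12.4%). The sterol regulatory element in this spelling was in 1 gene, SREBF2 (3.23%, against 1.56%). Matches of different motifs overlapped in 1 of the 41 windows. These are letters in a window and not measured binding. The 23 genes with an NF-Y box had a median log2 difference of -0.19, and the 8 without it 0.03. The other motifs split the genes in the same direction. The medians with and without the motif were -0.48 and -0.10 for the E-box (5 and 26 genes) and -0.17 and -0.05 for the GC box (29 and 2). For the sterol regulatory element they were -0.26 and -0.10 (1 and 30). The splits share genes. ELOVL5, INSIG1, LSS and SC5D, which have an E-box, and SREBF2, which has the sterol regulatory element, also had an NF-Y box. With 2 genes without a GC box and 1 with the sterol regulatory element, those splits cannot be set beside that of the NF-Y box. All genes compared were not split in this way, and the part of any motif in the differences was not tested.

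The first arm of the pathway leads from acetyl-CoA to farnesyl diphosphate and held 7 of the genes, of which none was called. Of the 7, 5 had a lower FPKM in LM2-4175 and 2 a higher one, beside 54.5% lower among all genes compared. Their median log2 difference was -0.27. ACAT2, the cytosolic thiolase that joins acetyl-CoA units, had 74.4 FPKM in MDA-MB-231 (bounds 34.0 to 114.8) and 51.5 FPKM in LM2-4175 (16.0 to 87.0). Its bounds were wide, and exons of TCP1 on the opposite strand overlap 17.2% of its exon bases. HMGCS1, which makes hydroxymethylglutaryl-CoA, had 27.5 FPKM (19.1 to 35.8) and 22.6 FPKM (15.3 to 29.8). Another gene on the opposite strand overlaps 37.7% of the exon bases of HMGCS1, and whether strand was used in counting is not stated.

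The values of the mevalonate kinases differed in opposite directions, with overlapping bounds in each case. MVK, mevalonate kinase, had 27.3 FPKM in MDA-MB-231 (18.3 to 36.2) and 19.4 FPKM in LM2-4175 (12.1 to 26.6). The log2 difference of MVK was -0.47 with a 95% interval of -1.15 to 0.20 taken from the bounds. PMVK, phosphomevalonate kinase, had 22.6 FPKM (16.8 to 28.3) and 29.4 FPKM (22.1 to 36.6). The log2 difference of PMVK was 0.37 with an interval of -0.12 to 0.85. MVD, the decarboxylase that follows, had 20.4 FPKM (14.9 to 26.0) and 22.5 FPKM (10.8 to 34.3). IDI1, the isomerase of isopentenyl diphosphate, was the one gene of this arm past 1.5-fold. It had 84.0 FPKM (45.6 to 122.3) in the parental line and 54.9 FPKM (31.9 to 77.8) in LM2-4175, and it was not called because the bounds overlap by 32.2 FPKM. The antisense genes IDI2-AS1 and RUSC1-AS1 overlap 15.0% of the exon bases of IDI1 and 18.6% of those of FDPS. FDPS, which makes farnesyl diphosphate for sterols and for protein prenylation, was nearly equal, with 183.9 FPKM (130.2 to 237.6) and 182.3 FPKM (131.8 to 232.7) and a log2 interval of -0.58 to 0.55. Of the 8 rows named as FDPS pseudogenes, none was above 0.0857 FPKM in either line.

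The promoter window of MVK (chr12:109573544-109573843, plus strand) held 5 NF-Y boxes, as many as that of NSDHL, and these were the highest numbers among the 41 windows. It is shown as an example of repeated NF-Y boxes, which are in capitals, on either strand.
MVK: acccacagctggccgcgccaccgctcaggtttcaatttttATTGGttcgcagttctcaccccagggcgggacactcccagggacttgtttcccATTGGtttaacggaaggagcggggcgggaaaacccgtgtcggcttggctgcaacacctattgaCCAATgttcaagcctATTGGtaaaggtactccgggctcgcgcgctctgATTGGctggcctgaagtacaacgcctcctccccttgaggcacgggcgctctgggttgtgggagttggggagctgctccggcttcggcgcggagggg
The boxes begin 210, 157, 94, 79 and 46 bases before the start.

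The second arm leads from farnesyl diphosphate through squalene to cholesterol and held 11 genes, of which 2 were called lower and none higher. Of the 11, 8 had a lower FPKM in LM2-4175 and 3 a higher one, and the median log2 difference was -0.35. Over all genes compared, 4.61% were called lower, 54.5% had a lower FPKM by any amount, and the median was -0.04. LSS encodes lanosterol synthase, which folds squalene epoxide into the first sterol of the pathway (ENSG00000160285, chromosome 21 of GRCh37, 47608055 to 47648738, minus strand). Its level was 65.4 FPKM (48.3 to 82.6) in the parental line and 33.8 FPKM (24.99 to 42.7) in LM2-4175. The bounds stood 5.56 FPKM apart, and the log2 difference was -0.93 with a 95% interval of -1.44 to -0.42. Exons of other genes in the table overlap 7.88% of its exon bases.

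SC5D encodes lathosterol oxidase, which introduces a double bond into the sterol ring near the end of the pathway (ENSG00000109929, chromosome 11, 121163390 to 121184119, plus strand). SC5D had 27.2 FPKM (20.6 to 33.7) in the parental line and 15.7 FPKM (11.7 to 19.7) in LM2-4175, and the log2 difference was -0.75 with an interval of -1.22 to -0.28. Its bounds were apart by only 0.955 FPKM. After scaling both lines to the same sum, the log2 difference of SC5D was -0.69 and its bounds overlapped, so it was no longer called. With a fold of 2 in place of 1.5, neither LSS nor SC5D was called.

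Another 2 enzymes lay just outside the rule. EBP, the sterol isomerase that acts directly before SC5D, had 114.7 FPKM (85.7 to 143.8) in the parental line and 69.0 FPKM (51.4 to 86.6) in LM2-4175, with bounds that overlap by 0.918 FPKM. SQLE, squalene epoxidase, which acts directly before LSS and is known as a rate-limiting step, had 13.8 FPKM (10.1 to 17.5) and 8.71 FPKM (6.41 to 11.0), with an overlap of 0.939 FPKM. The log2 difference was -0.73 for EBP (-1.23 to -0.22) and -0.60 for SQLE (-1.09 to -0.12). A rule of 1.5-fold and a difference in FPKM whose 95% interval leaves out 0, chosen after the data were seen, called SQLE, LSS, EBP and SC5D lower and ELOVL7 higher. These are 5 of 35 genes (14.3%), and 14.4% of all genes compared were called by that rule (6.61% higher and 7.84% lower), again near the background.

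**Figure D2:**
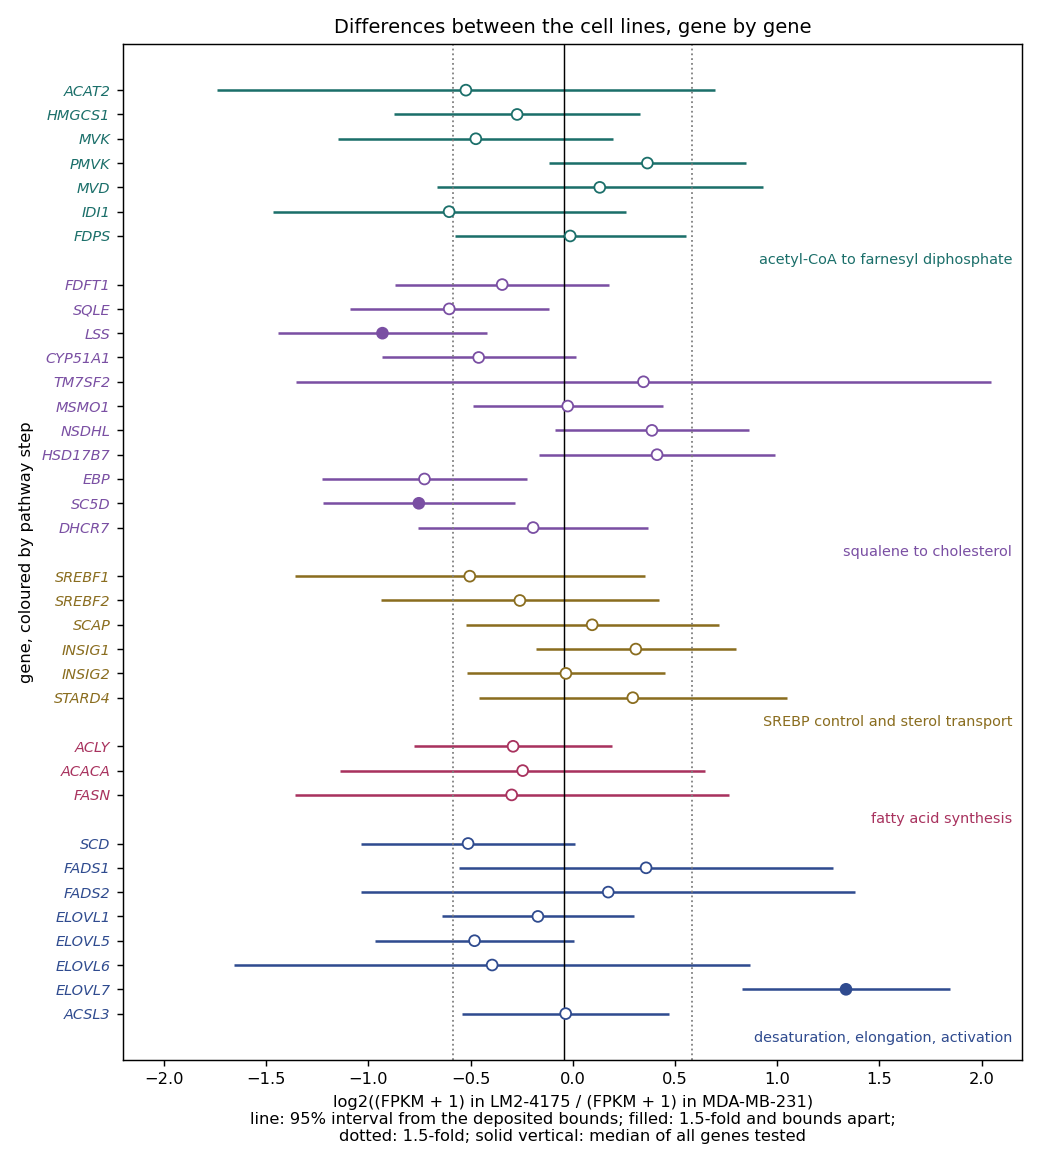
Log2 difference of each of the 35 genes, with the 95% interval from the deposited bounds; filled points were called, dotted lines mark 1.5-fold and the solid vertical line the median of all genes compared. The interval includes 0 for 30 genes and lies on one side of it for ELOVL7, LSS, SC5D, EBP and SQLE.

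The other 7 genes of this arm had overlapping bounds and intervals that include 0. FDFT1, squalene synthase, had 116 FPKM (84.6 to 147.3) in the parental line and 91.1 FPKM (67.6 to 114.5) in LM2-4175. CYP51A1, the demethylase of lanosterol, had 55.8 FPKM (42.1 to 69.4) and 40.3 FPKM (30.6 to 49.9), and its log2 interval of -0.93 to 0.01 reached 0 only narrowly. Of the genes for the demethylation that follows, MSMO1 was nearly equal at 48.9 FPKM (37.2 to 60.6) and 48.1 FPKM (36.8 to 59.3). NSDHL and HSD17B7, the dehydrogenase and the ketoreductase of that step, both had a higher value in LM2-4175. NSDHL had 24.4 FPKM (18.3 to 30.4) and 32.2 FPKM (24.3 to 40.1), which is 0.39 on the log2 scale. HSD17B7 had 10.4 FPKM (7.02 to 13.8) and 14.2 FPKM (9.93 to 18.4), which is 0.41 on the log2 scale, and a pseudogene row, HSD17B7P2, was listed at 0.602 and 1.16 FPKM. DHCR7, a reductase of the final steps, had 63.7 FPKM (45.9 to 81.4) and 55.5 FPKM (39.2 to 71.9). For TM7SF2, a sterol reductase, the bounds of 0 to 15.7 FPKM around 7.73 FPKM in MDA-MB-231 and 1.44 to 18.7 FPKM around 10.1 FPKM in LM2-4175 gave a log2 interval of -1.36 to 2.05.

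The promoter windows of LSS (chr21:46228725-46229024, minus strand) and of SC5D (chr11:121292521-121292820, plus strand) are shown as those of the genes called lower. Each holds 1 E-box and 1 NF-Y box, in capitals. The window of LSS also held 7 GC boxes and that of SC5D 1, which are not in capitals.
LSS: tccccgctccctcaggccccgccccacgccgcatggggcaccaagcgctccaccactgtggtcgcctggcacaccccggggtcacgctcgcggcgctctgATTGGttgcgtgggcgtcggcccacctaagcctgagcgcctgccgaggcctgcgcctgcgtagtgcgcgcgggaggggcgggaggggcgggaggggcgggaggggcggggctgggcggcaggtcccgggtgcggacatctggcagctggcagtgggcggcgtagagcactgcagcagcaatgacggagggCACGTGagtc
SC5D: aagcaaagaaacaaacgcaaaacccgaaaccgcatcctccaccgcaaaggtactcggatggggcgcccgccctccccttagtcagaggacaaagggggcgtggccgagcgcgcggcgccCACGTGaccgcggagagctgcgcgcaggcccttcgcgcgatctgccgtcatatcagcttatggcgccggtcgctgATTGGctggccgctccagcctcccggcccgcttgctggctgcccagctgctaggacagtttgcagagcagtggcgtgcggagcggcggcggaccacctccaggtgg
In LSS the NF-Y box lies 150 bases before the start and the E-box 40 bases after it, and in SC5D they lie 56 and 131 bases before it. SC5D has a second window with another start (chr11:121292602-121292901), which also held 1 E-box and 1 NF-Y box. The distances given for SC5D are those of the window shown. The other genes with an E-box were ELOVL5, INSIG1 and SCAP, which were not called.

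Of the 6 genes that control SREBP or move sterols, none was called and none was past 1.5-fold. Of the 6, 3 were lower and 3 higher in LM2-4175, with a median log2 difference of 0.03. SREBF1, whose product drives mainly fatty acid genes, had 119.6 FPKM in MDA-MB-231 (66.3 to 172.8) and 84.0 FPKM in LM2-4175 (48.7 to 119.4). Its log2 difference was -0.50 with an interval of -1.36 to 0.35. SREBF2, whose product drives mainly sterol genes, had 43.0 FPKM (26.1 to 59.9) and 35.8 FPKM (25.2 to 46.4). The level of SREBF1 was 2.78 times that of SREBF2 in MDA-MB-231 and 2.35 times in LM2-4175. SCAP, the escort of SREBP, had 21.7 FPKM (14.6 to 28.9) and 23.3 FPKM (15.9 to 30.7).

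The retention factor INSIG1, itself a known SREBP target, had a higher value in LM2-4175 but was not called. It had 87.3 FPKM (65.5 to 109.1) in the parental line and 108.3 FPKM (81.8 to 134.8) in LM2-4175. Its log2 difference was 0.31 with an interval of -0.18 to 0.80. Its relative INSIG2 had 12.4 FPKM (9.20 to 15.5) and 12.1 FPKM (8.83 to 15.3). INSIG1 was thus 7.05 times as high as INSIG2 in MDA-MB-231 and 8.97 times in LM2-4175. STARD4, a carrier of cholesterol between membranes, had 28.1 FPKM (16.7 to 39.5) and 34.7 FPKM (21.8 to 47.6).

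The window of SREBF2 (chr22:41832855-41833154, plus strand) is shown as the only one of the 41 with the sterol regulatory element as spelled above. The element lies 133 bases before the start and an NF-Y box 106 bases before it, both in capitals.
SREBF2: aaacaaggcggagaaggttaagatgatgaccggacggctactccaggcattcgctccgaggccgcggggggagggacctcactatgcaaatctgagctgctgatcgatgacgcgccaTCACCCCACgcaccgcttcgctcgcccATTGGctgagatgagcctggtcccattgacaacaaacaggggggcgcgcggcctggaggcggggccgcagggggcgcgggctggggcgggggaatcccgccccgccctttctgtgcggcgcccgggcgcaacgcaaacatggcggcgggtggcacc

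All 3 genes of fatty acid synthesis proper had a lower FPKM in LM2-4175, as did 54.5% of all genes compared. None of the 3 was past 1.5-fold, and their log2 differences lay between -0.30 and -0.24. ACLY, which splits citrate into cytosolic acetyl-CoA, had 147.2 FPKM in MDA-MB-231 (111.1 to 183.3) and 120.1 FPKM in LM2-4175 (91.1 to 149.0), with a log2 interval of -0.77 to 0.19. ACACA, the carboxylase that makes malonyl-CoA, had 31.6 FPKM (17.4 to 45.7) and 26.5 FPKM (13.9 to 39.1). FASN, the fatty acid synthase, had 103.1 FPKM (46.8 to 159.4) and 83.6 FPKM (39.6 to 127.7), and its interval of -1.36 to 0.76 is wide. After scaling to the same sum the 3 genes were still lower.

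The last group, of 8 genes that desaturate, elongate or activate fatty acids, held the one gene called higher. ELOVL7 (ENSG00000164181, chromosome 5 of GRCh37, 60047618 to 60140101, minus strand) encodes an elongase of saturated and polyunsaturated long-chain fatty acids in the endoplasmic reticulum. Its level was 2.72 FPKM (1.92 to 3.51) in the parental line and 8.39 FPKM (5.68 to 11.1) in LM2-4175, which is 3.09 times as high. The bounds stood 2.16 FPKM apart, and the log2 difference was 1.34 with an interval of 0.83 to 1.85. No exon of another gene in the table overlaps ELOVL7. It was still called higher with a fold of 2. Scaling both lines to the same sum and centring on the median of all genes raised its log2 difference, so they could not have removed the call. The level of ELOVL7 was still the lowest of the 35 genes in LM2-4175, and ELOVL5 was 11.4 times as high there, against 49.5 times in MDA-MB-231.

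The other elongases among the 35 genes, ELOVL1, ELOVL5 and ELOVL6, had a lower FPKM in LM2-4175, and none of the 3 was called. ELOVL1, which extends very long saturated chains, had 96.3 FPKM (73.6 to 119.1) in the parental line and 85.5 FPKM (64.9 to 106.1) in LM2-4175. ELOVL5, which extends polyunsaturated chains, had 134.4 FPKM (101.6 to 167.1) and 96.0 FPKM (72.4 to 119.7), with a log2 interval of -0.97 to 0.01. ELOVL6, which extends palmitate to stearate, had 52.8 FPKM (25.8 to 79.8) and 39.9 FPKM (9.66 to 70.2).

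The window of ELOVL7 (chr5:60844220-60844519, minus strand), shown as that of the gene called higher, held neither an NF-Y box nor an E-box nor the sterol regulatory element, so it carries no capitals.
ELOVL7: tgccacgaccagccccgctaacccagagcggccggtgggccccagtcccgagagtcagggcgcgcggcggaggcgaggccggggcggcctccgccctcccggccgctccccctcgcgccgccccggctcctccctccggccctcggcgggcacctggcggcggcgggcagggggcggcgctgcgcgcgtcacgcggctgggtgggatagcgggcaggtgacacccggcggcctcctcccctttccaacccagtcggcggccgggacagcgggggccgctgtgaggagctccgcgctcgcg
It held 4 GC boxes.

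Among the desaturases, SCD had the lower value in LM2-4175 and both FADS genes the higher one, with overlapping bounds. SCD, which makes monounsaturated fatty acids, had 221 FPKM (159.2 to 281.8) in the parental line and 154.3 FPKM (116.2 to 192.5) in LM2-4175. Its log2 difference was -0.51 with an interval of -1.04 to 0.01. FADS1 and FADS2 desaturate polyunsaturated fatty acids and lie beside each other on chromosome 11, where 1 locus entry of the table holds both genes. FADS1 had 71.1 FPKM (38.9 to 103.4) and 91.5 FPKM (48.1 to 134.9), and FADS2 had 183.3 FPKM (64.8 to 301.8) and 206.9 FPKM (89.99 to 323.8). FADS1 was at 0.388 of the level of FADS2 in MDA-MB-231 and at 0.442 of it in LM2-4175. ACSL3, which activates fatty acids on the endoplasmic reticulum and on lipid droplets, was nearly equal at 54.5 FPKM (40.5 to 68.5) and 53.2 FPKM (39.4 to 67.0).

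**Figure D3:**
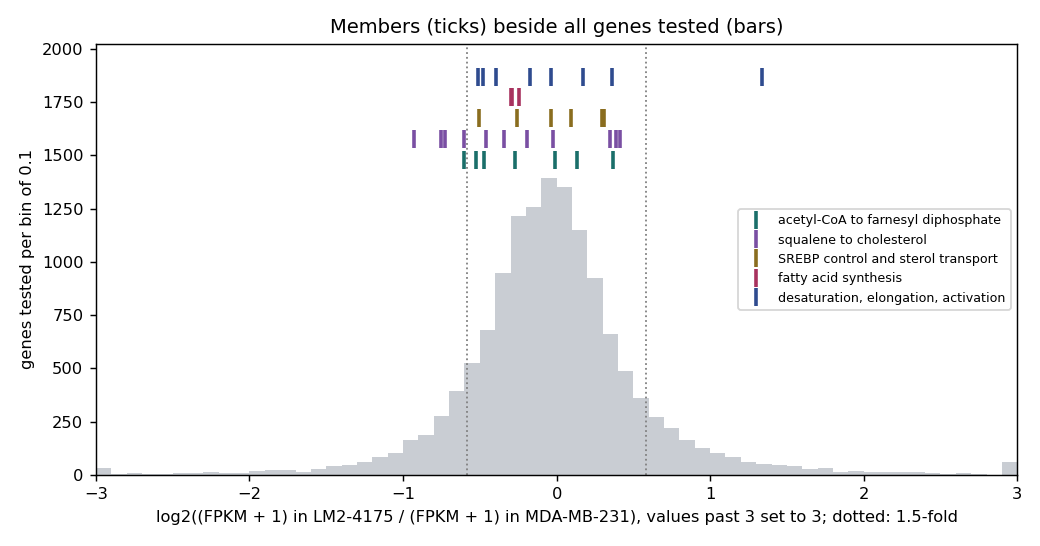
Number of genes per bin of 0.1 in log2 difference for all 13911 genes compared (bars, values past 3 set to 3), with the 35 genes as ticks in 5 rows, 1 for each pathway step; dotted lines mark 1.5-fold. The ticks lie within the bulk of the bars, 24 of them below 0, and the tick farthest to the right is ELOVL7 at 1.34.

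How small a difference could be called depended on the bounds. With the widths deposited, the FPKM of the lines would have to differ by a median of 1.80-fold for the bounds to part. Widths went with shared loci. The 8 genes whose locus entry held 4 or more other genes (ACAT2, IDI1, TM7SF2, SREBF1, STARD4, ACACA, FADS1 and FADS2) had upper bounds 38.8% to 94.6% above the FPKM as a mean of both lines, with a median of 46.3%, and none of them was called. The 14 genes alone in their entry had a median of 25.2%, and 2 were called. Over all genes compared, 13.9% of the 4395 that were alone in an entry were called. Of the 9516 that share an entry, 371 were called higher and 309 lower, so the counts called among the 35 are not read as a result. FASN was an exception among the 14 genes alone, at 53.6% without another gene in its entry. The 14 genes alone had a median log2 difference of -0.03, against -0.24 for all 35. All genes compared that were alone in an entry had a median of -0.05. For the 21 of the 35 genes that share an entry the median was -0.27, beside -0.04 for all genes compared that share one. The part that shared loci have in the lower median was not tested.

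**Figure D4:**
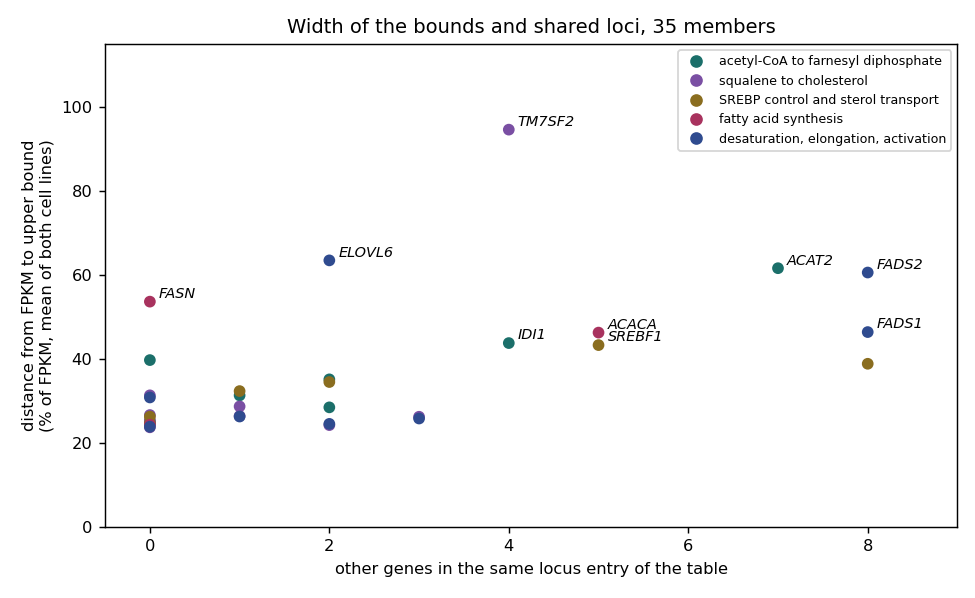
Distance from the FPKM to its upper bound in percent of the FPKM (mean of both lines) against the number of other genes in the locus entry, with a point for each of the 35 genes coloured by pathway step. Genes above 40% are named, and TM7SF2 is the highest at 94.6%.

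The protein-coding genes beside the genes called, and beside EBP and SQLE, which only the later interval rule called, were compared with them. Up to 5 genes on each side that passed the FPKM filter were taken. The 10 neighbours of ELOVL7 were evenly divided, with 5 higher and 5 lower and a median log2 difference of -0.02, and 1 of them, ZSWIM6, was called higher. Of the 10 neighbours of LSS, 7 were lower with a median of -0.20, but COL6A1, COL6A2 and PCBP3 were called higher and COL18A1 lower. Those of SC5D had a median of -0.36, with 7 lower, and OAF was called higher and SORL1 and CRTAM lower. EBP lies on the X chromosome. All 10 of its neighbours had a lower FPKM in LM2-4175, with a median of -0.41, and only SUV39H1 was called, as lower. Among these neighbours, ZNF630 (1.08 and 0.114 FPKM) and SSX1 (0.865 and 0.506 FPKM) were at low levels. The 10 neighbours of SQLE had a median of 0.00, with 5 higher and 5 lower, and TRIB1 was called higher.

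Further genes of lipid handling were compared in 10 lists that did not include the 35 genes. Of the 90 genes compared, 4 were called higher and 5 lower, which is 10.0% against the background of 9.27%. On the sterol side, the 3 genes called were lower in LM2-4175. MBTPS2, the Golgi protease that makes the second cut in SREBP, had 16.3 FPKM (12.2 to 20.4) in the parental line and 7.75 FPKM (5.58 to 9.93) in LM2-4175. This was a log2 difference of -0.98, and it was the 1 gene called of 8 for SREBP proteolysis and INSIG turnover. SCARB1, the receptor for high-density lipoprotein, had 26.6 FPKM (19.8 to 33.3) and 14.2 FPKM (10.1 to 18.2). It was the 1 gene called of 12 for sterol uptake and transport, of which 7 were lower and 5 higher. LRP1 of that list had the largest log2 difference of the 10 lists, 1.57, and was higher in LM2-4175. Its 5.15 FPKM (0.638 to 9.65) and 17.2 FPKM (5.72 to 28.7) have overlapping bounds, so it was not called. ABCA1, the cholesterol exporter, had 16.3 FPKM (12.1 to 20.5) and 8.93 FPKM (6.61 to 11.3). All 7 genes compared for efflux and LXR signalling had a lower value, with a median of -0.35, but only ABCA1 was called. Among all genes compared, 54.5% had a lower value. No gene was called of 12 in the isoprenoid branch, whose median was -0.03, or of 8 other sterol synthesis genes and electron donors, whose median was -0.33.

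On the fatty acid side, genes were called in both directions. ME1, a source of NADPH for synthesis, had 22.1 FPKM (16.6 to 27.7) in the parental line and 12.4 FPKM (9.10 to 15.6) in LM2-4175. Of 8 genes for acetyl-CoA and NADPH supply, 7 were lower, beside 54.5% of all genes compared. Their median was -0.45, and only ME1 was called. AGPAT2, an acyltransferase of glycerolipid synthesis, had 55.5 FPKM (42.4 to 68.6) and 27.1 FPKM (20.5 to 33.8) and was called lower. DGAT2, which makes triglyceride, went the other way, from 5.24 FPKM (2.84 to 7.64) to 14.3 FPKM (9.61 to 18.99). The carnitine-related genes CPT1C, with 3.67 and 8.59 FPKM, and SLC25A20, with 3.48 and 7.76 FPKM, were called higher among 12 genes of fatty acid oxidation, whose median was -0.00. ELOVL3 was called higher at a low level, 0.447 against 1.36 FPKM, among 9 other elongation and desaturation genes. Of 5 other acyl-CoA synthetase genes, all had a higher FPKM with a median of 0.28, but none was called.

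**Figure D5:**
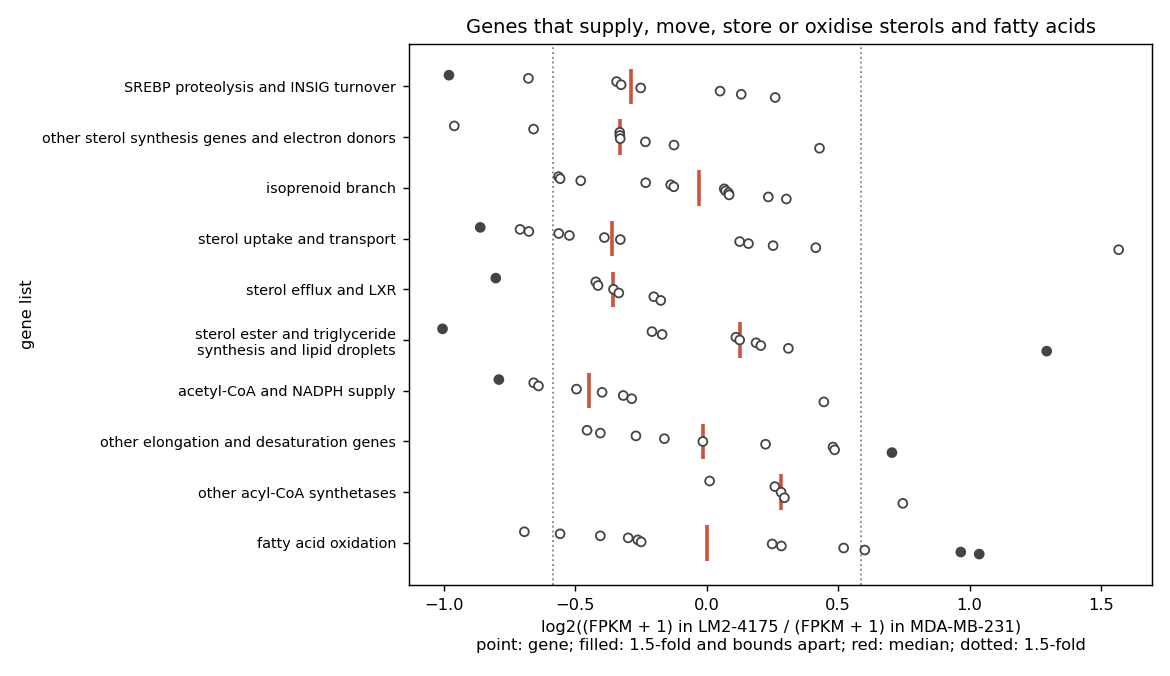
Log2 difference of the 90 genes compared in 10 lists of lipid handling, with a point for each gene, filled where it was called, a red bar for the median of the list and dotted lines at 1.5-fold. The lowest medians are those of acetyl-CoA and NADPH supply (-0.45) and of sterol uptake and transport (-0.36), and the highest is that of the other acyl-CoA synthetases (0.28).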

How the data were processed

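Each cell line was measured by RNA-Seq in 2 libraries, with paired reads of 150 bases. Alignment by the authors was to hg19 with TopHat 2.0, and they quantified GENCODE 19 genes with Cufflinks, and the submitters' processing notes also name Cuffdiff. They deposited 1 FPKM per gene and cell line, with a lower and an upper bound. What spread the bounds cover, how libraries were scaled and whether strand was used are not given in the sources used here. Read counts per library were not used here.

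Of 57815 genes, 13911 had a status of OK in both lines and a mean of at least 0.5 FPKM. Differences were taken on the log2(FPKM + 1) scale, which understates changes of low genes. A gene was called at 1.5-fold with bounds apart. Each upper bound was read as 2 standard errors above its FPKM, and 95% intervals of the log2 difference were computed from these. No p-value was computed, as there was 1 value per line. All 35 genes are named, and of the further lists the genes called and LRP1. The 35 genes, the lists and the rules were chosen with earlier results of these data known. The calling rule was run on simulated data. How often it calls an unchanged gene in the deposited values was not tested, as what spread the bounds cover is not given. Positions and exon overlaps came from GENCODE 44 on GRCh37, which matched 34 of the 35 genes by Ensembl ID, and promoters from RefSeq on GRCh38.p14. Protein sequences were not used here. Python 3.11.15, NumPy 2.4.6, pandas 2.3.3 and Matplotlib 3.10.9 were used.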

Additional observations from a re-analysis of the deposited data

How the results depend on the processing

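ELOVL7 was called higher at a fold of 2. Scaling to TPM, centring on the median of all genes and a pseudocount of 0.1 FPKM each raised its log2 difference and could not have removed its call. The fold alone, the bounds alone, no filter on low values and the shared loci could not have removed its call either. ELOVL7 passed a mean of 5 FPKM only through LM2-4175. Centring on the median of all genes brought the log2 differences of LSS and SC5D to -0.89 and -0.71, and both were still called lower. The same pseudocount, no filter on low values, a mean of at least 5 FPKM and the bounds alone could not have removed the calls of LSS and SC5D. Scaling to TPM left 1 gene of the 35 lower (LSS), a fold of 2 left 0, and the fold of 1.5 alone gave 5 (IDI1, SQLE, LSS, EBP and SC5D). The counts over all genes were 1434 higher and 1640 lower by the fold alone, 450 higher and 403 lower at a fold of 2, 735 higher and 547 lower scaled to TPM, and 321 higher and 443 lower at a mean of at least 5 FPKM, where fewer genes were compared, beside 649 higher and 641 lower as reported. Of the alternatives chosen after the data were seen, a 95% interval of the FPKM difference without 0 gave 4 lower genes of the 35, with 919 higher and 1090 lower of all genes, and leaving out genes that share a locus entry gave 1 lower gene (SC5D) of 14, with 278 higher and 332 lower of 4395 genes. Besides that last setting, where it was -0.03, the median of the 35 genes lay between -0.25 and -0.17. No paired analysis was possible because the table holds 1 value per cell line, and for the same reason no library could be left out. The bounds limit the calls, and for the 35 genes they part at a median of 1.80-fold. What depth contributes to their width is unknown.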
